A study of Macaca mulatta with 18 samples.

Results

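CP-only domain boundaries are 40 kb bins of the macaque genome that the authors listed as boundaries of chromatin domains in CP and for which the GZ list has no boundary bin within 40 kb. They were chosen by the Hi-C boundary calls of both tissues, and no CTCF, DNase or loop value entered the choice. Of 2486 autosomal CP boundaries, 284 were CP-only, a share of 11.4% (Wilson 95% interval 10.2 to 12.7). The other 2202 were shared: 1425 lay in the same bin as a GZ boundary and 777 lay 1 bin away from one. In the opposite direction, 503 of 2704 autosomal GZ boundaries (18.6%, 17.2 to 20.1) were GZ-only.

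The series profiled wild type fetal brain of the rhesus macaque at embryonic day 84, separated into material labelled CP and GZ. The labels spell out neither abbreviation. Each tissue had 3 Hi-C libraries, 1 DNase-seq library and 1 CTCF ChIP-seq library, with input samples and RNA-seq libraries that were not used here. The DNase and CTCF libraries carry the animal label RM01, and the Hi-C libraries RM01, RM02 and RM03. All groups share genotype and stage, and the labels name no treatment.

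Hi-C joins pieces of DNA that lie close together in the nucleus, so that the number of reads joining a pair of loci reports how often they meet. Chromosomes fold into domains within which contacts are frequent, and a boundary is a place across which contacts are sparse. An insulation score measures this depletion along the genome, and the strength of a boundary is the depth of the dip. In mammals many boundaries carry CTCF, a zinc finger protein that stops the cohesin complex as it extrudes loops of DNA. CTCF sites of loop anchors usually point towards each other, so that loops start and end at boundaries and rarely run across them. DNase-seq marks DNA that is open to the nuclease, as it is at active promoters, enhancers and CTCF sites.

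Each tissue has 1 boundary list and 1 loop list for its 3 Hi-C libraries, and 1 peak list for each of CTCF and DNase. Spread between animals therefore could not be measured, no test of a difference between tissues was possible, and all intervals cover counting error only. The GZ lists were the longer ones, with 22044 CTCF peaks in CP against 30883 in GZ, 71800 DNase peaks in CP against 83028 in GZ, and 9399 loops in CP against 15048 in GZ. This difference in list length runs through every comparison of CP features with GZ features below.

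CP-only boundaries were weak boundaries. Their median strength in the CP list was 0.382 (exact 95% interval of the median 0.354 to 0.409), against 0.617 (0.601 to 0.636) for shared boundaries. The middle of the CP-only distribution ran between quartiles of 0.298 and 0.571, and the lowest strength in both deposited lists was 0.25. Of the CP-only boundaries, 77 (27.1%) had a strength below 0.30, against 131 (5.95%) of the shared ones. At least the median strength of all CP boundaries was reached by 66 CP-only boundaries (23.2%) and 1177 shared ones (53.5%). A strength of 1 or more was reached by 5 CP-only boundaries (1.76%) and 357 shared ones (16.2%). Strength and the call come from the same Hi-C lists, so these values describe the members and support nothing further.

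**Figure D1:**
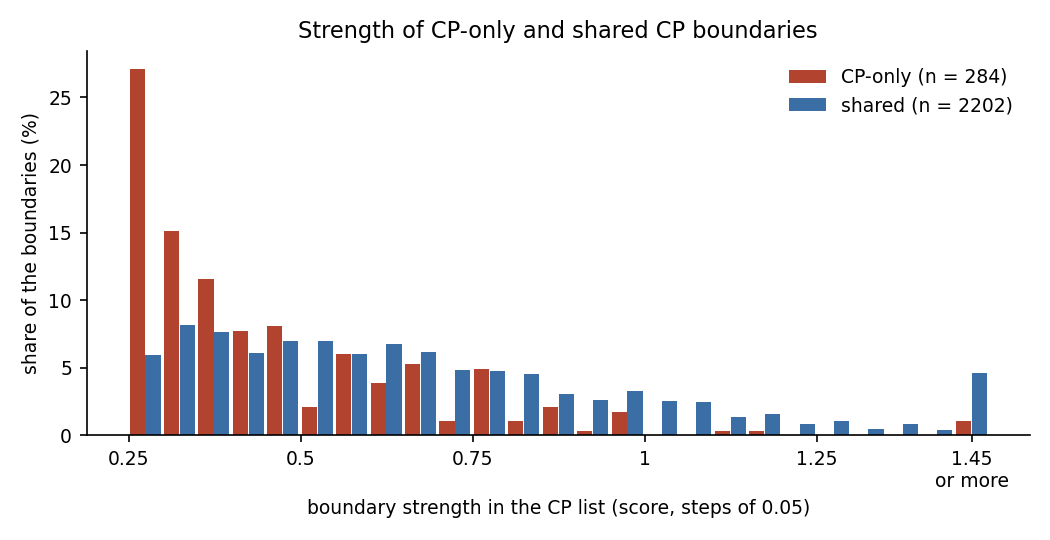
Distribution of boundary strength (horizontal axis, score in steps of 0.05, with everything from 1.45 up in the last step) as a share of each class (vertical axis, percent) for the 284 CP-only and the 2202 shared CP boundaries. The CP-only bars pile up at the listing floor of 0.25, with 27.1% of members in the first step against 5.95% of shared boundaries.

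The values on either side of the 40 kb limit did not jump. The 77 CP-only boundaries just inside the rule, whose nearest GZ boundary was 80 kb away, had a median strength of 0.477. The 777 shared boundaries just outside it, with a GZ boundary 40 kb away, had a median of 0.565, and the 1425 in the same bin had 0.651. GZ-only boundaries had a median strength of 0.383 in the GZ list, against 0.688 for shared boundaries in that list, so weakness was found in the 1-tissue boundaries of both lists.

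CP-only boundaries were found on every autosome. Chromosome 6 had the highest share, with 30 CP-only of 167 CP boundaries (18.0%, 12.9 to 24.5), and chromosomes 14, 19 and 4 followed with 16.5%, 15.9% and 15.1%. Chromosome 1 held the most members, 33 of 235 boundaries. The lowest shares were 4.69% on chromosome 20 (3 of 64, 1.61 to 12.9) and 5.65% on chromosome 8 (2.76 to 11.2). Among 20 chromosomes, the interval of chromosome 6 met that of chromosome 20 and lay above that of chromosome 8.

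More than 1 in 2 CP-only boundaries had a GZ boundary a few bins away. The distance to the nearest GZ boundary had a minimum of 80 kb, a median of 160 kb and a maximum of 2160 kb. It was 80 kb for 77 members, 120 or 160 kb for 80, 200 to 400 kb for 68 and over 400 kb for 59. Members with a GZ boundary at 80 to 160 kb thus numbered 157 (55.3%), and in 98 of these (62.4%) that nearest GZ boundary was itself GZ-only. Among the 59 members more than 400 kb from any GZ boundary, the nearest one was GZ-only in 6 (10.2%). Of all autosomal GZ boundaries, 18.6% were GZ-only. The nearest GZ boundary of a member is shared only where another CP boundary lies within 40 kb of it. The rule and the spacing of CP boundaries therefore bear on both shares. The near members were the stronger ones: the median strength was 0.459 at 80 to 160 kb and 0.339 beyond 160 kb. Of the 66 members at or above the median strength of the CP list, 55 had a GZ boundary within 160 kb.

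CP-only boundaries also lay closer to other CP boundaries. The nearest other CP boundary was at a median distance of 320 kb from CP-only boundaries and 600 kb from shared ones. Another CP boundary sat in the very next bin for 42 CP-only boundaries, against 64 of the 2202 shared ones, and in 34 of the 42 that neighbour was itself CP-only. Of all autosomal CP boundaries, 11.4% were CP-only. A neighbour in the next bin can be shared only where a GZ boundary lies 80 kb from the member on that side. The rule therefore bears on the 34 of 42. Whether such neighbours are 1 place was not tested, and merging them is among the alternatives tried.

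In 90 cases a CP-only boundary lay 80 or 120 kb from a GZ-only boundary, so that the lists gave nearby bins a boundary in 1 tissue each. Whether such a pair is 1 boundary placed differently was not tested. A GZ-only bin nearest to more than 1 of these CP-only bins was counted for each, so the GZ-only values hold repeats. The CP-only bins of these pairs had a median strength of 0.535 in the CP list and their GZ-only partners had 0.584 in the GZ list. A CP CTCF peak was present in 33.3% of the CP-only bins and 34.4% of the GZ-only bins, with 0.489 peaks per bin in both. A GZ CTCF peak was present in 38.9% of the CP-only bins (29.5 to 49.2) and 46.7% of the GZ-only bins (36.7 to 56.9), with 0.644 and 0.744 peaks per bin. CP loop anchors were present in 17.8% of the CP-only bins and 13.3% of the GZ-only bins, with overlapping intervals. The 1 or 2 bins between the partners held 0.433 CP CTCF peaks and 1.27 CP DNase peaks per bin, against 0.489 and 1.21 in the CP-only bins.

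CTCF was present at CP-only boundaries more often than in the genome at large and less often than at shared boundaries of like strength. For this comparison, shared boundaries were sorted into the strength quintiles (5 classes of equal size) of the CP-only boundaries. Their shares were averaged with the same weight for each quintile as among the CP-only ones. The strongest quintile has no upper limit. Strengths in it reached 2.16 at CP-only and 12.2 at shared boundaries, so they were matched only loosely there. A CP CTCF peak overlapped 107 of the 284 CP-only bins, or 37.7% (32.2 to 43.4). The share was 45.4% in strength-weighted shared bins and 23.6% in all 66872 autosomal bins of 40 kb. A GZ CTCF peak overlapped 131 CP-only bins, or 46.1% (40.4 to 51.9), against 54.0% of weighted shared bins and 31.1% of all bins. Both shared values lay above the interval of the CP-only share.

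**Figure D2:**
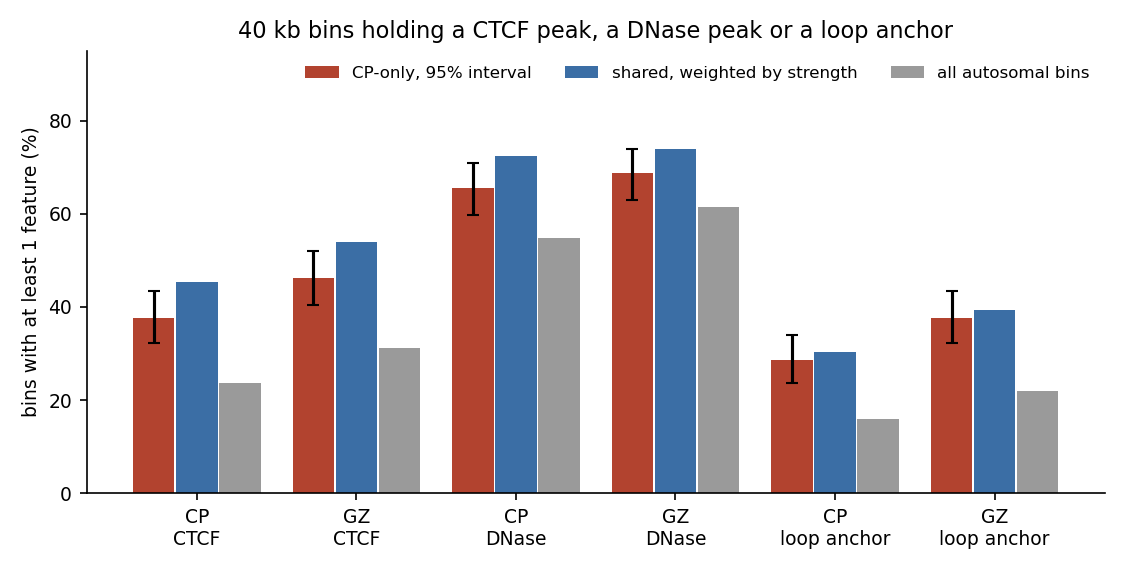
Share of 40 kb bins that hold at least 1 CTCF peak, DNase peak or loop anchor of the CP or GZ list (vertical axis, percent) for CP-only boundaries with Wilson 95% intervals, shared boundaries weighted to the same strengths, and all autosomal bins. For CP CTCF the bars stand at 37.7%, 45.4% and 23.6%, and for CP loop anchors at 28.5%, 30.4% and 16.0%.

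Most CP-only bins thus held no CTCF peak. The CP list gave 0 peaks to 177 members, 1 peak to 70, 2 peaks to 27 and 3 or more to 10, and the most in any bin was 5. The GZ list gave 0 peaks to 153 members, 1 peak to 78, 2 peaks to 30 and 3 or more to 23, with a maximum of 6. The mean was 0.563 CP peaks per CP-only bin, against 0.66 per weighted shared bin and 0.324 per bin of all autosomes.

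The CTCF peaks at CP-only boundaries were largely present in both tissues. CTCF of both lists was found in 102 members (35.9%), of the CP list alone in 5 (1.76%), of the GZ list alone in 29 (10.2%) and of neither in 148 (52.1%). Weighted shared boundaries had 44.3%, 1.11%, 9.74% and 44.9% in these classes. Of the 160 CP CTCF peaks in CP-only bins, 148 overlapped a GZ peak (92.5%, 87.3 to 95.7), against 92.3% of the CP peaks in shared bins and 91.6% of all autosomal CP peaks.

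The peaks themselves were of ordinary height. The authors' fold enrichment had a median of 6.87 for the CP CTCF peaks in CP-only bins, 7.19 for those in shared bins and 7.01 for all autosomal CP peaks. In the GZ list the medians were 13.4, 14.6 and 13.8. Ranked within their own list, the peaks of CP-only bins sat at a median percentile of 47.7 in CP and 48.5 in GZ, against 52.1 and 53.3 for shared bins.

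The shortfall in CTCF was found in the stronger CP-only boundaries. In the weakest quintile a CP CTCF peak was present in 36.8% of CP-only and 36.4% of shared bins, and in the next quintile in 54.4% and 49.5%. In the third quintile the shares were 35.7% in CP-only and 47.6% in shared bins, and in the fourth 31.6% and 47.6%. In the strongest quintile, with strengths of 0.624 or more, they were 29.8% in CP-only bins (19.5 to 42.7, 57 members) and 45.8% in shared bins (42.9 to 48.8). The GZ CTCF shares there were 33.3% in CP-only and 53.1% in shared bins. The strongest quintile of CP-only boundaries thus had the lowest CTCF shares of the 5, whereas the CP CTCF share in shared bins changed little from the second quintile up.

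Around shared boundaries CTCF formed a peak about 160 kb wide, and around CP-only boundaries a lower and broader one. In the CP list CP-only boundaries had 0.563 peaks in the bin, 0.470 per bin at 40 kb, 0.482 at 80 to 160 kb and 0.364 at 400 to 600 kb. Shared boundaries had 0.676 in the bin, 0.655 at 40 kb, 0.454 at 80 to 160 kb and 0.356 at 400 to 600 kb. The ratio of the bin to the farthest flank was 1.55 for CP-only and 1.90 for shared boundaries. It was 1.86 for members more than 160 kb from any GZ boundary and 1.33 for those at 80 to 160 kb, where the bins at 80 to 160 kb held more CTCF (0.567 per bin) than the boundary bin (0.522).

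**Figure D3:**
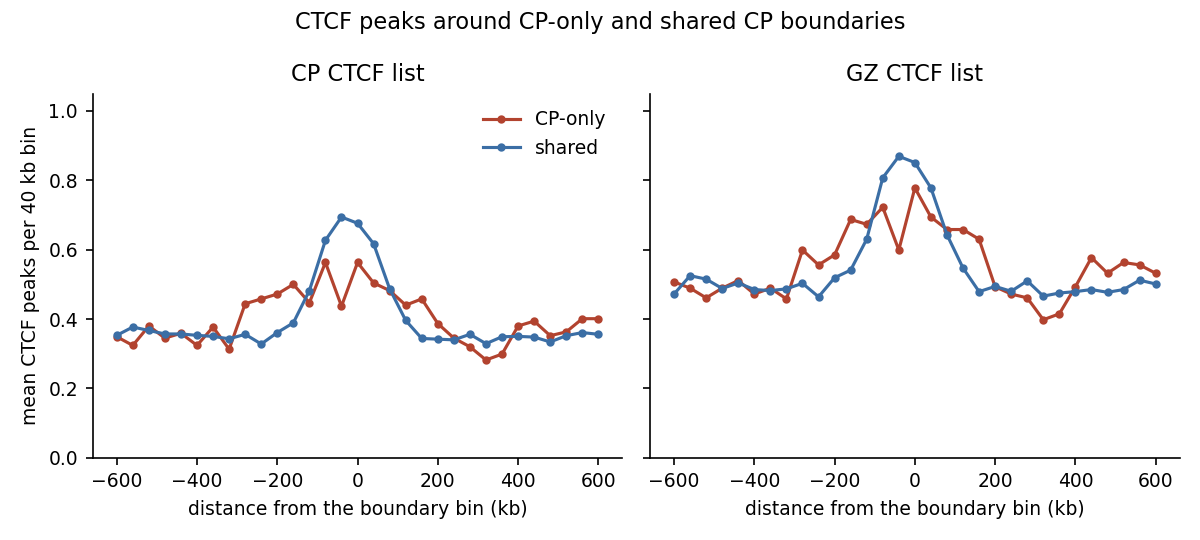
Mean number of CTCF peaks per 40 kb bin (vertical axis) by distance from the boundary bin (horizontal axis, kb) in the CP list (left) and the GZ list (right), for CP-only boundaries and for shared boundaries without strength weighting. Shared boundaries form a smooth hill that reaches 0.694 CP peaks per bin 40 kb before the boundary bin, while CP-only boundaries reach 0.563 and lie above shared ones at 120 to 160 kb on both sides, except in the CP list 120 kb before the bin (0.447 against 0.482).

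Over all strengths together, open chromatin was likewise more frequent at CP-only boundaries than in all bins and less frequent than at shared boundaries of like strength. A CP DNase peak was present in 186 CP-only bins, or 65.5% (59.8 to 70.8), against 72.5% of weighted shared bins and 54.8% of all autosomal bins. A GZ DNase peak was present in 195, or 68.7% (63.0 to 73.8), against 73.9% and 61.4%. In the strongest strength quintile, a CP DNase peak was found in 54.4% of CP-only bins, at the level of all autosomal bins, and in 71.4% of shared bins. The second quintile had no shortfall, with 80.7% of CP-only and 74.5% of shared bins for CP and 77.2% of both for GZ. With 1 bin added on each side, CP-only minus weighted shared was -2.18 percentage points (-5.77 to 0.253) for CP and -3.06 (-6.51 to -0.765) for GZ.

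DNase peaks of both lists were found in 169 members, of CP alone in 17, of GZ alone in 26 and of neither in 72. The CP-only bins held 390 CP DNase peaks, of which 69.7% were also in the GZ list, against 71.5% in shared bins and 61.6% over all autosomes. Their median fold over local background was 10.6, against 10.5 in shared bins and 9.11 over all autosomes.

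The 2 sides of a CP-only boundary differed somewhat less in the number of DNase peaks than those of shared boundaries. The numbers of CP DNase peaks in the 200 kb before and after the bin differed by a mean of 3.19 (SD 2.87 over 284 members), against 3.66 for weighted shared boundaries. With the GZ list the means were 3.69 and 4.07. The 2 sides together also held fewer peaks at CP-only than at weighted shared boundaries, 12.4 against 13.1 in CP and 13.7 against 14.6 in GZ. No test of these gaps was made, and they were not adjusted for the number of peaks.

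Taken over all strengths, loop anchors sat in the CP-only bins about as often as in shared bins of like strength, but the loops around CP-only boundaries were arranged in another way. A CP loop anchor lay in 81 CP-only bins, or 28.5% (23.6 to 34.0), against 30.4% of weighted shared bins and 16.0% of all bins. A GZ loop anchor lay in 107, or 37.7% (32.2 to 43.4), against 39.4% of weighted shared bins and 21.9% of all bins. The quintiles differed: in the strongest, anchors lay in 17.5% of CP-only and 30.4% of shared bins for CP and in 24.6% and 41.5% for GZ, and in the second in 43.9% and 35.9% for CP and in 54.4% and 40.8% for GZ. The window mattered too, since anchors of shared boundaries were most frequent beside the bin. With 1 bin added on each side, the CP-only share minus the weighted shared share was -10.7 percentage points for CP anchors and -9.67 for GZ anchors.

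The side of the loops that lay at the boundary separated CP-only from shared boundaries. Around shared boundaries, right anchors of CP loops (the end with the higher coordinate) piled up before the boundary, with 39.1 per 100 boundaries 80 kb before the bin, and gave way to 5.77 at 40 kb after it. Left anchors did the reverse, with 6.18 per 100 boundaries at 80 kb before and 34.4 at 40 kb after. Loops thus ended on one side of a shared boundary and new loops started on the other. Around CP-only boundaries, right anchors numbered 15.1 per 100 at 80 kb before and 15.5 at 40 kb after, and left anchors 12.0 and 15.1.

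**Figure D4:**
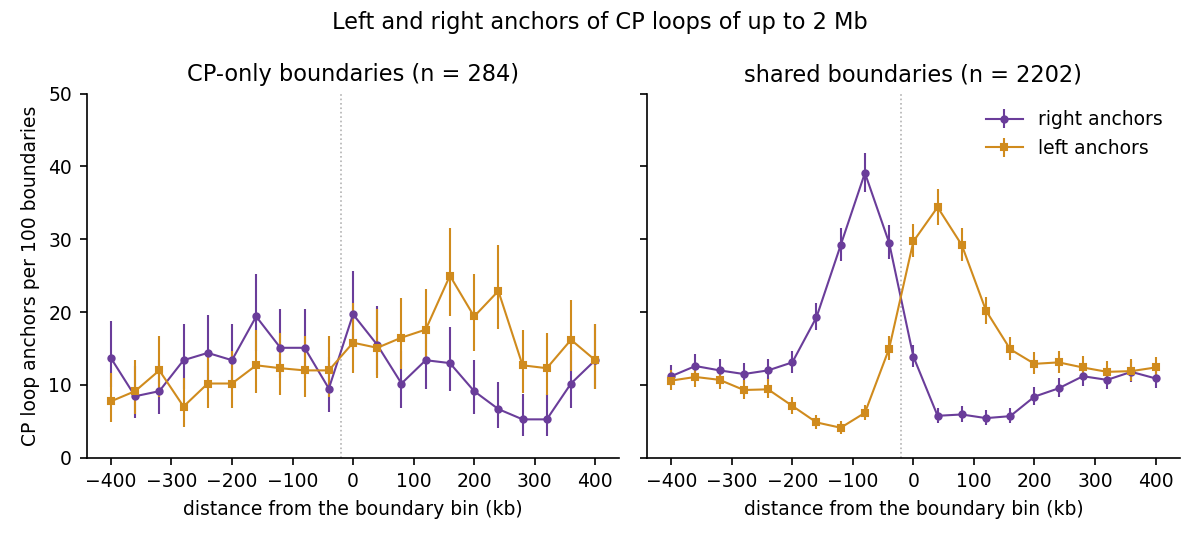
Right and left anchors of CP loops of up to 2 Mb per 100 boundaries (vertical axis, with exact Poisson 95% intervals) by distance from the boundary bin (horizontal axis, kb) for CP-only boundaries (left) and shared boundaries (right); the dotted line marks the left edge of the bin. Right anchors give way to left anchors across shared boundaries (39.1 and 6.18 at 80 kb before the bin, 5.77 and 34.4 at 40 kb after it), while at CP-only boundaries the counts at these distances lie between 12.0 and 15.5.

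Counted over 160 kb on each side of the left edge of the bin, where the switch was centred, 353 of the 659 CP loop anchors beside CP-only boundaries belonged to loops pointing away from the boundary, as right anchors before it or left anchors after it (53.6%, 49.7 to 57.3). The share was 79.0% beside shared boundaries and 74.4% after weighting by strength. An even mixture of directions gives equal numbers, and the CP-only interval for this window includes it. Outside this window, left anchors outnumbered right anchors at some distances after the bin (22.9 against 6.69 per 100 CP-only boundaries at 240 kb). With GZ loops the shares were 50.8% (47.9 to 53.8) at CP-only boundaries and 72.4% at weighted shared ones. The differences were -20.9 percentage points (CP loops) and -21.6 (GZ loops). Their size depended on the window: over 8 bins on each side they were -7.59 and -10.4. The intervals of the classes did not overlap in 4 of 5 strength quintiles. In the weakest quintile the CP shares were 59.3% (50.3 to 67.8) at CP-only and 63.2% at shared boundaries. In the strongest, where strengths were matched only loosely, they were 57.1% (47.9 to 65.9) and 82.8%. Members more than 160 kb from any GZ boundary had 56.8% (51.1 to 62.2), and those at 80 to 160 kb had 50.8% (45.7 to 56.0). One anchor can lie beside several boundaries and be counted for each, so the intervals are narrower than independent anchors would give. Loops and boundaries come from the same contacts, and the measure was chosen after the profiles were seen.

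**Figure D5:**
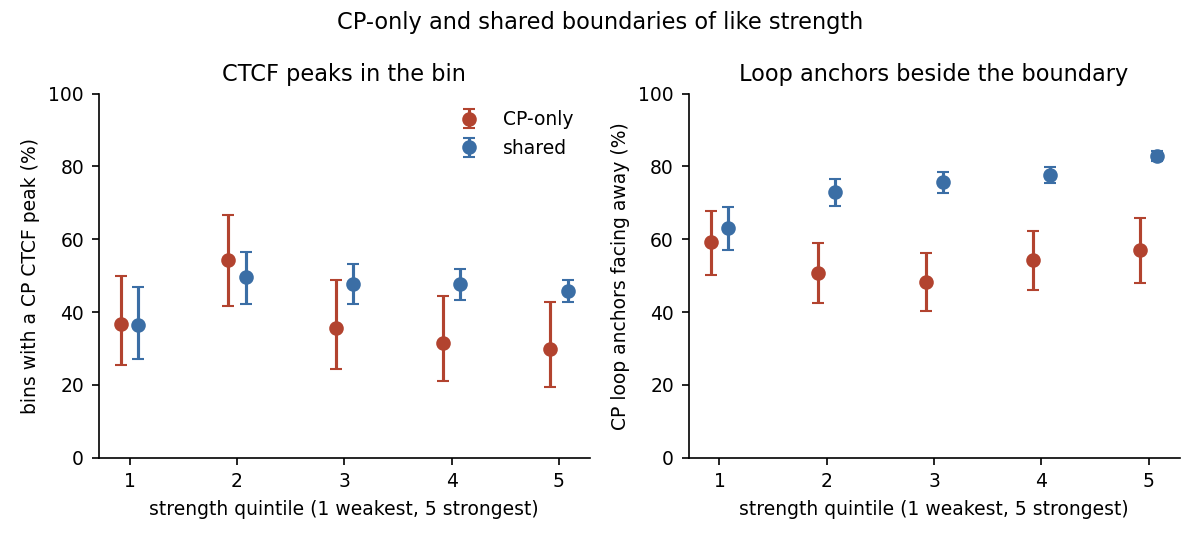
CP-only and shared CP boundaries by strength quintile (horizontal axis, 1 weakest to 5 strongest), with the share of bins holding a CP CTCF peak (left) and the share of CP loop anchors within 160 kb that belong to loops pointing away from the boundary (right), both in percent with Wilson 95% intervals. In the strongest quintile, which has no upper limit of strength, the CTCF shares are 29.8% and 45.8%, and the anchor shares 57.1% and 82.8%.

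The loops anchored in CP-only bins had a shorter median span than those anchored in shared bins. No value for these loops was weighted by boundary strength. There were 115 CP loops with an anchor in a CP-only bin, with a median span of 380 kb, against 610 kb for loops anchored in shared bins and 550 kb for all autosomal CP loops. The GZ list held a match, with both anchors within 1 loop bin of 10 kb, for 77.4% of them (68.9 to 84.1), against 86.5% at shared boundaries (84.4 to 88.3) and 80.8% of all. For the 183 GZ loops anchored in CP-only bins, a CP match was found for 49.7% (42.6 to 56.9), against 53.6% at shared boundaries and 50.5% of all. Observed contacts exceeded the donut expectation by a median ratio of 2.94 at CP-only, 3.48 at shared boundaries and 3.27 over all autosomes. In CP-only bins left anchors numbered 52 and right anchors 65, whereas in shared bins they numbered 823 and 430.

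CTCF and anchors coincided at CP-only boundaries as they did at shared ones. A CP loop anchor was present in 57 of the 107 CP-only bins with a CP CTCF peak (53.3%) and in 24 of the 177 without one (13.6%). In shared bins these shares were 51.2% and 12.7%. CP CTCF, CP DNase and a CP anchor were found together in 57 members (20.1%), against 24.0% of weighted shared boundaries. No feature of either tissue was found in 59 members (20.8%), against 16.6% of weighted shared boundaries.

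Anchors present in CP and absent in GZ were few. Both lists had an anchor in 74 members, the CP list alone in 7 (2.46%), the GZ list alone in 33 (11.6%) and neither in 170. Weighted shared boundaries had 2.49% with CP alone and 11.6% with GZ alone. At CP-only boundaries GZ features were more frequent than CP features with the lists as deposited, for DNase within counting error (-8.87 to 2.12). The CP share minus the GZ share was -8.45 percentage points for CTCF, -3.17 for DNase and -9.15 for loop anchors with the lists as deposited. With the lists cut to equal length, keeping the highest of the longer one, these differences were 0.352 (-5.08 to 6.12), 0.704 (-5.0 to 5.99) and 3.17 (-1.77 to 8.68). Each interval of a difference here is that of the CP share, with the GZ share held fixed. Both shares come from the same bins, and that pairing was not used. Whether list length was the cause was not tested.

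More GZ loops ran across CP-only boundaries than across shared ones. A loop of up to 2 Mb was counted as crossing when its anchors lay on opposite sides of the bin. GZ loops crossed a CP-only boundary 1.58 times on average (exact Poisson 95% interval 1.43 to 1.73), against 1.31 for weighted shared boundaries, and 33.1% of CP-only boundaries (27.9 to 38.8) were crossed by none, against 40.8%. CP loops crossed 0.739 times (0.643 to 0.846), against 0.676, and 57.0% were crossed by none, against 60.4%. The ratio of CP to GZ crossings was 0.469 at CP-only and 0.523 at shared boundaries without strength weighting, and the CP list held 0.61 times as many loops of up to 2 Mb as the GZ list. The excess was found in the stronger boundaries. In the strongest quintile GZ crossings averaged 1.19 at CP-only and 0.625 at shared boundaries, and CP crossings 0.544 and 0.338. Strengths in that quintile reached 2.16 at CP-only and 12.2 at shared boundaries, so its gaps include differences in strength. No excess was seen in the 2 weakest quintiles, where the intervals of the classes overlapped. The weakest had 1.75 (1.43 to 2.13) and 1.88 GZ crossings and 0.789 (0.576 to 1.06) and 0.943 CP crossings. The next had 1.58 and 1.64 for GZ and 0.789 and 0.859 for CP.

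The CP-only boundaries near a GZ boundary and those far from any were also set against shared boundaries separately; the difference between the classes was not tested. The 157 members with a GZ boundary at 80 to 160 kb had a CP CTCF peak in 33.8% of bins (26.8 to 41.5), against 46.1% of shared bins weighted to their strengths. They had a CP loop anchor in 21.0% (15.4 to 28.0), against 30.1%, and 1.66 GZ crossings (1.47 to 1.88), against 1.19. The 127 members farther than 160 kb had a CP CTCF peak in 42.5% (34.3 to 51.2), against 44.4%, a CP anchor in 37.8% (29.8 to 46.5), against 30.0%, and 1.47 GZ crossings (1.27 to 1.7), against 1.44. In the far class the weighted shared values for CTCF, anchors and crossings all lay within the members' counting intervals, the one for anchors at its edge.

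Boundaries of the GZ list with no CP boundary within 40 kb had loop anchors less often than shared boundaries of like strength in their own list. GZ-only bins held a CP anchor in 23.3%, against 30.4% of weighted shared bins, and a GZ anchor in 30.8%, against 40.3%. They held a CP CTCF peak in 36.6%, against 42.6%, and a GZ CTCF peak in 46.7%, against 49.3%. The share of GZ loop anchors facing away was 57.8% (55.6 to 59.9) beside GZ-only boundaries and 78.5% beside shared boundaries of the GZ list, the second without strength weighting.

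The 3 strongest CP-only boundaries carried no CTCF peak, and 2 of them lay side by side where all lists held few features. Adjacent bins on chromosome 19 of rheMac8, chr19:23040001-23080000 and chr19:23080001-23120000, had strengths of 2.16 and 2.14. Their nearest GZ boundary, a shared one of strength 2.38, was 280 kb and 240 kb away. Neither bin held a peak or an anchor of any list, and within 400 kb there was no CTCF peak of either tissue, 7 CP DNase peaks and 5 GZ DNase peaks. The next strongest was chr11:56640001-56680000, with a strength of 1.71. A GZ-only boundary of strength 1.61 lay 80 kb from it at chr11:56720001-56760000. The bin at chr11:56640001-56680000 had no CTCF peak, 4 CP and 5 GZ DNase peaks and no anchor. Within 400 kb of it there were 20 CP and 27 GZ CTCF peaks and 43 CP and 48 GZ DNase peaks. These 3 were also the strongest of the 148 members without a CTCF peak of either tissue. The annotation of this build was not used here, so no gene is named at these places.

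Of the 5 members with a CP CTCF peak and no GZ CTCF peak, the 3 strongest differed in strength and in distance to GZ. The first, chr20:11960001-12000000, had a strength of 0.959 and a GZ-only boundary 120 kb away. Its CP CTCF peak at chr20:11962381-11962677 had a fold enrichment of 4.12, below the median of the list. At chr6:166800001-166840000, with a strength of 0.567 and a GZ-only boundary 80 kb away, the peak at chr6:166831300-166831504 had a fold enrichment of 7.83. At chr3:143000001-143040000, with a strength of 0.34, the nearest GZ boundary was 560 kb away. There the peak at chr3:143025258-143025520 had a fold enrichment of 7.36, and the bin held a loop anchor in both tissues. The bin anchored 2 CP loops, and the one with the higher ratio of observed to expected contacts ran 450 kb from chr3:142570001-142580000 to chr3:143020001-143030000, with 31 contacts observed and 5.5 expected.

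Among the 7 members with a CP anchor and no GZ anchor, the strongest was chr7:49400001-49440000, with a strength of 0.764 and a shared boundary 160 kb away. Its loop spanned 5960 kb to chr7:55370001-55380000, with 50 contacts observed and 2.43 expected, and the bin held no CTCF and no DNase peak of either list. The next strongest held CTCF in both tissues and anchored shorter loops. At chr6:112680001-112720000, with a strength of 0.657, the loop spanned 160 kb, with 70 contacts observed and 22.9 expected. At chr14:56040001-56080000, with a strength of 0.46, it spanned 340 kb, with 70 contacts observed and 20.9 expected. A GZ-only boundary of strength 0.638 lay 80 kb from the chromosome 6 bin, and a shared one of strength 1.15 lay 320 kb from the chromosome 14 bin.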

How the data were processed

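Boundary strengths are deposited scores on 40 kb bins of rheMac8; no header names the column, and it was taken as strength from its values. The labels name HiCCUPS at 10 kb for the loops, which carry observed counts and a donut-expected signal per the file headers. CTCF peaks, with a score and a fold ratio, were deposited by the authors in MACS2's narrowPeak format, and DNase peaks of 146 bp carry HOMER's score and fold over local background, per the file headers. Per the submitters' processing notes, which give no roles or versions, the tools included Bowtie2, HiC-Pro, HOMER, MACS2, SAMtools, STAR and deepTools, and the builds were Mmul_8.0.1 and rheMac8. The submitters later exchanged Hi-C contact maps and added runs, and the sources used here do not say which version gave these lists. Depth is not given in the lists, and the number of peaks or loops limits the precision.

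Features were counted in a bin when they overlapped it by at least 1 bp. Shared boundaries were weighted to the strength quintiles of the CP-only boundaries. Intervals are 95% Wilson (shares), exact order statistic (medians) or exact Poisson (means of counts). An interval of a difference is that of the CP-only value, or of the CP share, with the other value held fixed. The functions were tested on simulated data. Python 3.11.15, pandas 2.3.3, numpy 2.4.6 and scipy 1.17.1 were used. Named regions are the 3 strongest CP-only boundaries of all, without CTCF, with CTCF in CP alone, and with an anchor in CP alone. The members, lists and comparisons were chosen with earlier results of these data known. Expression was not used, because its table holds no coordinates.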

Additional observations from a re-analysis of the deposited data

How the results depend on the processing

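With 1 boundary, loop and peak list per tissue, the spread between animals was not measured, and no library was left out. No paired analysis was possible because the results come from no test and each tissue has a single list. Of 150 alternatives computed, 110 stayed within counting error of the reported value, or within 1.5 times of it for the number of boundaries; 38 moved farther, and in 2 a difference whose interval excluded 0 turned its sign. Of the differences, 136 of 144 kept their sign. The sign changed, with a value outside the interval of the main one, for CP and GZ anchors and CP crossings at 160 kb. The same held for CTCF and anchors with lists of equal length. Of these new values, only that of CP anchors at 160 kb (8.18, 0.218 to 16.8) had an interval that excluded 0. Settings chosen after seeing the data were the 160 kb limit, the bin with the bin before it, merged bins and every setting of the facing-away measure. The cause of these changes was not tested, apart from what a setting itself removes.

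The number of CP-only boundaries was 1061 when only the same bin counted as shared, 66 at or above median strength, 127 at a limit of 160 kb, 207 at 80 kb and 349 with boundary lists of equal length. The median strength of CP-only minus shared boundaries (-0.235) was -0.133 with the same bin only, -0.278 with boundary lists of equal length, -0.0747 at or above median strength and -0.268 at 160 kb. At or above median strength, the CP-only minus shared difference in percentage points was -16.0 for CP CTCF, -18.3 for GZ CTCF, -13.8 for CP DNase, -14.0 for GZ DNase, -10.9 for CP anchors, -15.0 for GZ anchors and -26.4 for CP anchors facing away; the difference in GZ crossings was 0.479. At 160 kb it was -1.27 for CP CTCF, 8.18 for CP anchors, 5.05 for GZ anchors, -14.2 for CP and -13.5 for GZ anchors facing away, and crossings differed by -0.125 (CP) and 0.0158 (GZ). With the same bin only, it was -0.816 for CP DNase, -9.07 for CP and -10.6 for GZ anchors facing away.

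With 1 bin on each side, anchor shares differed by -10.7 (CP) and -9.67 (GZ), and the CP minus GZ anchor share at CP-only boundaries was -14.4. With the bin before it, they differed by -10.1 (CP) and -13.5 (GZ). Without strength weighting, crossings differed by 0.233 (CP) and 0.609 (GZ), and anchors facing away by -25.5 (CP) and -26.3 (GZ). Loops of every span gave crossing differences of 5.94 (CP) and 7.15 (GZ). Over 8 bins on each side, anchors facing away differed by -7.59 (CP) and -10.4 (GZ). With peak and loop lists of equal length, the CP minus GZ difference at CP-only boundaries was 0.352 (-5.08 to 6.12) for CTCF and 3.17 (-1.77 to 8.68) for loop anchors.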

Other observations

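The loop anchors around CP-only boundaries showed an excess of left anchors at some distance after the bin. The distances given were picked from the profile, and these anchor counts were not weighted by strength. Left anchors of CP loops numbered 25.0 per 100 CP-only boundaries at 160 kb after the bin (exact Poisson 95% interval 19.5 to 31.5) and 22.9 at 240 kb (17.7 to 29.2), while right anchors numbered 13.0 and 6.69. At shared boundaries, left anchors at these distances numbered 14.9 and 13.1 per 100, and right anchors 5.72 and 9.54. Left anchors numbered 29.9 and 28.0 per 100 in the members with a GZ boundary at 80 to 160 kb. In those farther than 160 kb they numbered 18.9 (12.1 to 28.1) and 16.5 (10.2 to 25.3), intervals that include the shared values. Before the bin, right anchors at CP-only boundaries were highest at 160 kb, with 19.4 per 100 (14.6 to 25.2), against 19.3 at shared boundaries, where they were highest at 80 kb. The 59 CP-only boundaries more than 400 kb from any GZ boundary were crossed by 1.29 GZ loops on average (1.01 to 1.61). The value for shared boundaries weighted to their strengths, 1.53, lay within that interval. CP loops crossed them 0.458 times (0.302 to 0.666), against 0.779, which lay above the interval.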
